A study of Mus musculus with 6 samples.

Results

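Axon guidance genes were described in ear skin of mice with a deletion of Kdr, the gene of the VEGF receptor VEGFR2, aimed at lymphatic endothelium. The genes were taken by symbol from the deposited table and comprised 20 semaphorins, 8 plexins, 8 ephrins, 14 Eph receptors, 3 Slit ligands, 4 Robo receptors and 4 Unc5 receptors, 61 genes of the 18482 listed. Mice of the lecko group (Vegfr2lecko) carried an inducible deletion of Kdr described as specific to lymphatic vessels, and littermates were the controls. Both groups received tamoxifen, the drug that induces the deletion, and ear skin was collected at postnatal day 21. Each group held 3 libraries of polyadenylated RNA. The sources used here do not name the Cre driver or the strain, and they give more than 1 tamoxifen schedule without saying which applied to these mice. Nothing says that each library came from a separate animal, so the p-values cover only the spread among the 6 libraries. How much of that spread is technical is not known.

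These families carry short-range and secreted signals that steer axons, and vessels use the same molecules. Semaphorins signal through plexins, the secreted class 3 members with neuropilins as co-receptors. Ephrins are tethered to the cell surface and bind Eph receptor kinases on neighbouring cells, with signals in both directions. Slit proteins are secreted ligands of Robo receptors such as Robo1 and Robo2, and Unc5 proteins are receptors of netrins. In vessels, the ephrin-B2 and EphB4 pair separates arteries from veins and takes part in forming lymphatic valves, plexin-D1 is an endothelial semaphorin receptor, and Robo4 is a Robo receptor of endothelial cells.

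Total counts were 17242921 to 17825135 per library, and the guidance genes together took between 0.269% and 0.292% of them. Values below are CPM, counts scaled to a common library size with TMM factors. Kdr served as the check of the labels: its level was 32.6, 31.3 and 38.5 CPM in controls 1 to 3 and 9.76, 11.2 and 10.2 CPM in lecko 1 to 3. It was among 3 genes called over the 14856 genes tested by edgeR at an adjusted p under 0.05 (0.0202%). Counts of 4 Y-linked genes were 4272 and 4564 in controls 2 and 3. They lay between 4 and 21 in control 1 and the lecko libraries. Sex was therefore unevenly spread over the groups, and the controls did not all come from 1 animal. Fits with sex as a covariate and without controls 2 and 3 are given at the end. Blood and pan-endothelial markers had a median log2 fold change (lecko minus control) of -0.25, with 7 of 10 lower at an unadjusted p under 0.05, and leukocyte markers one of 0.53, with 7 of 10 higher. Lymphatic endothelial markers, which check the targeted cell type, were all detected and had a median of -0.11, with 2 of 7 lower at an unadjusted p under 0.05. Over all genes tested, 3.68% were lower and 4.89% higher at that threshold. Kdr had a log2 fold change of -1.72. Whole skin does not show which cells lost Kdr RNA, and whether the loss was confined to lymphatic vessels was not tested.

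Of the 61 guidance genes, 56 had enough counts to be tested, and 0 passed edgeR's test at an adjusted p under 0.05 over all genes; the smallest adjusted p was 0.385, for Robo4. At an unadjusted p under 0.05 stood 13 of the 56 (23.2%), 6 higher and 7 lower in lecko skin. Over all genes tested the corresponding shares were 8.56% in either direction, 4.89% higher and 3.68% lower. The higher genes were Slit2, Slit3, Plxnc1, Epha3, Epha7 and Sema5a, and the lower genes Robo4, Efna3, Efna1, Sema3f, Plxnb1, Sema6b and Epha1. The median log2 fold change of the 56 genes was 0.02, beside 0.01 over all genes, and their median absolute change was 0.11, beside 0.09. CPM of the groups did not overlap for 3 genes that were higher and 8 that were lower, 11 in all, while over all genes tested this held for 7.37% higher, 7.23% lower and 14.6% in either direction. By limma-voom 13 members stood at an unadjusted p under 0.05 (8.98% of all genes tested), and by DESeq2 10 of 60 (5.47%), with 0 at an adjusted p under 0.05 by either tool.

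**Figure D1:**
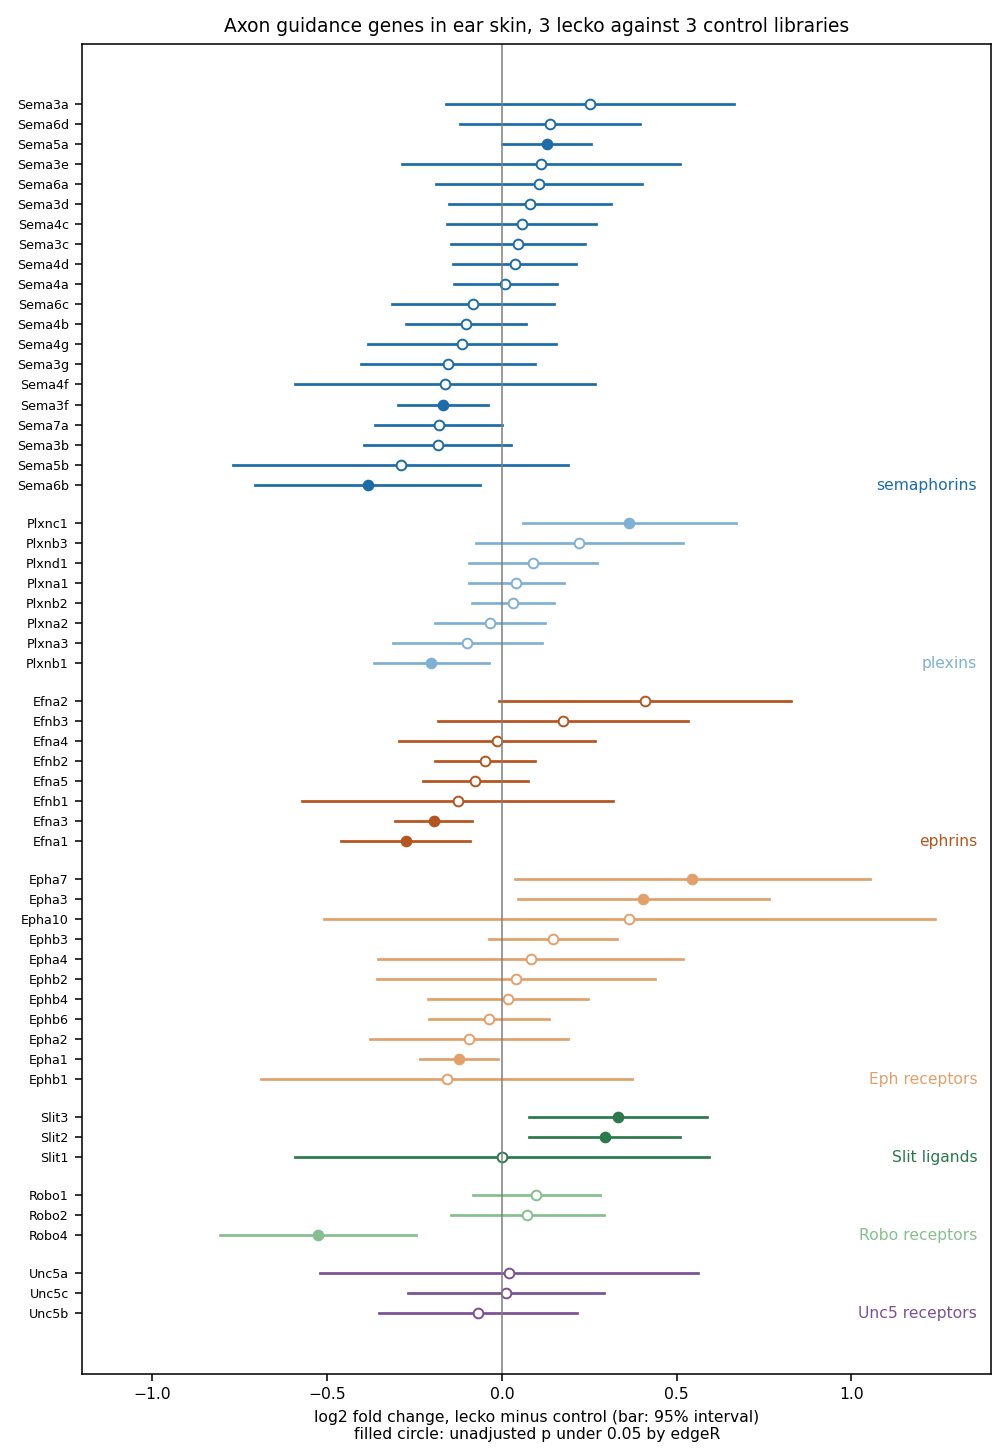
Log2 fold change (lecko minus control) of the 56 tested guidance genes by family, as circles with 95% intervals from edgeR; filled circles mark an unadjusted p under 0.05. Robo4 at -0.53 lies farthest below 0 and Epha7 at 0.54, with a wide interval, farthest above it, and the intervals of 43 genes include 0.

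Slit2 and Slit3 had positive estimates and Robo4 a negative one. The contrast between them was not tested, and neither was any pairing of Robo4 with the Slit ligands. Robo4, the endothelial Robo receptor, gave 23.2, 21.6 and 19.8 CPM in controls 1 to 3 and 17.5, 14.5 and 12.8 CPM in lecko 1 to 3. All 3 lecko libraries lay below all controls. The log2 fold change was -0.53 (SE 0.12, 95% interval -0.81 to -0.25), with an unadjusted p of 0.0022 and an adjusted p of 0.385 by edgeR. Whole skin cannot tell fewer cells of a type from less RNA per cell, here or for any gene below. Set against the mean of the 10 endothelial markers in the same library, Robo4 was at -0.94 ± 0.18 log2 units in controls and -1.23 ± 0.16 in lecko skin (SD, n = 3), and these relative values overlapped between the groups.

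Slit3, a secreted ligand, gave 47.2, 65.1 and 54.2 CPM in controls 1 to 3 and 70.8, 65.8 and 73.1 CPM in lecko 1 to 3. The lecko libraries were the 3 highest, but lecko 2 lay only just above control 2. The log2 fold change of Slit3 was 0.33 (SE 0.11), with an unadjusted p of 0.017 and an adjusted p of 0.51 by edgeR. Slit2 gave 39.9, 47.5 and 41.6 CPM in controls and 53.6, 46.8 and 57.9 CPM in lecko libraries, where lecko 2 fell within the control range. Its log2 fold change was 0.29 (SE 0.10), with an unadjusted p of 0.013 and an adjusted p of 0.51 by edgeR. The remaining ligand, Slit1, was scarce, at 1.44, 0.977 and 1.48 CPM in controls and 1.24, 1.19 and 1.48 CPM in lecko libraries, and the 95% interval of its log2 fold change ran from -0.59 to 0.59.

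Robo1 and Robo2, the Slit receptors of neurons and many other cells, had estimates near 0. Control skin averaged 36.3 ± 1.67 CPM of Robo1 and lecko skin 38.9 ± 3.48 CPM (SD, n = 3), and the 95% interval of the log2 fold change ran from -0.08 to 0.28. For Robo2 the averages were 35.4 ± 2.29 and 37.2 ± 4.58 CPM, and the interval ran from -0.15 to 0.29; without lecko 3 the estimate for Robo2 turned to -0.03. Both intervals lie apart from the estimate for Robo4, but the difference between receptors was not tested. Robo3 held 1 count in lecko 2 and 0 in the other libraries, and a count of 0 allows up to 3 counts, 0.168 to 0.174 CPM, for counting error only. Per kilobase of exons, Slit3 stood at 10.6, Slit2 at 4.29, Robo1 at 4.80, Robo4 at 4.22 and Robo2 at 3.97 CPM in control skin, so the 3 receptors were present at similar levels.

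Robo4, Slit2 and Efna3 had the smallest unadjusted p among receptors, Slits and ephrins, and their upstream sequences are shown to place these 3 genes in the genome; the choice was made after their values were seen. The sequences come from the RefSeq promoter table of build GRCm38.p6, which held 54 of the 61 genes. They run 5′ to 3′ on the gene's strand and stop at the first GENCODE M21 exon of any gene within the window. That exon need not be the gene's own first exon. The RefSeq gene model of Slit2 starts further upstream, so its window lies inside that model. Capitals mark a GC box (GGGCGG) or a TATA box (TATAAA), searched on both strands.
Robo4, chr9:37401722-37401896, plus strand: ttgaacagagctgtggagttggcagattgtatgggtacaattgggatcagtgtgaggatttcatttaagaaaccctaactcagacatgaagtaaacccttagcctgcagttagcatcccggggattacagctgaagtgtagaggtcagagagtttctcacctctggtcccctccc
Slit2, chr5:47982905-47983137, plus strand: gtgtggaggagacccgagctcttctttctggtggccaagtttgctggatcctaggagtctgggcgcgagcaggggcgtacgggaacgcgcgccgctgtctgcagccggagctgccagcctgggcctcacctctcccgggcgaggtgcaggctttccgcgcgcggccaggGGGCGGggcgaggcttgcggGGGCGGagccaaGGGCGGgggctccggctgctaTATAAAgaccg
Efna3, chr3:89322966-89323189, minus strand: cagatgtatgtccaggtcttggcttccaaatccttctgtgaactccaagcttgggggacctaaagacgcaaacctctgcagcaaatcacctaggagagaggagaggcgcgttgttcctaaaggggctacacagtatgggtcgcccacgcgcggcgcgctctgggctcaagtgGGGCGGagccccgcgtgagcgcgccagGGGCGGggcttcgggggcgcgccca
The Robo4 window held neither motif and had 47.4% G and C, where the median of all promoters over the same stretch was 51.4%. The Slit2 window held 3 GC boxes and 1 TATA box at 70.4% G and C, and the Efna3 window 2 GC boxes and no TATA box at 63.4%. Over all promoters in the table, a GC box occurred in 20.2%, 30.3% and 29.1% of windows of these 3 lengths, and a TATA box in 8.22%, 11.9% and 10.3%. The core AGGAAG, bound by ETS factors, was searched as well and was in none of the 3 windows, against 21.0%, 27.5% and 26.5% of all promoters. A match describes these letters and shows no binding.

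Of the class A ephrins, which are anchored to the membrane by a lipid, Efna3 and Efna1 were lower. Efna3 gave 141, 139 and 139.8 CPM in controls and 119.8, 122 and 125 CPM in lecko libraries. All lecko libraries lay below all controls, and the log2 fold change was -0.19 (SE 0.05), with an unadjusted p of 0.0031 and an adjusted p of 0.41 by edgeR. Efna1, a ligand of EphA2 known from endothelium and epidermis, gave 60.1, 49.4 and 50.5 CPM in controls and 43.6, 44.7 and 43.9 CPM in lecko libraries. The groups did not overlap, and control 1 stood above the other controls. The log2 fold change of Efna1 was -0.28 (SE 0.08), with an unadjusted p of 0.0080 and an adjusted p of 0.49 by edgeR. Efna3 shares 344 exonic bases, 14.6% of its exons, with the antisense transcript Gm15998, and reads of these genes cannot be told apart here because the strand setting is not given.

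The remaining class A ephrins had intervals that include 0. Efna4 had a log2 fold change of -0.01 (95% interval -0.29 to 0.27) and Efna5 one of -0.08 (-0.23 to 0.08). Efna2, with averages of 4.02 ± 0.42 CPM for controls and 5.34 ± 1.11 CPM for lecko libraries (SD, n = 3), had a log2 fold change of 0.41 with an unadjusted p of 0.054 by edgeR. Of the class B ephrins, Efnb1 and Efnb3 had log2 fold changes of -0.13 and 0.17, with intervals that include 0. In all, 6 of 8 ephrins had negative estimates and the family median was -0.06. Per kilobase, Efna3 was the most abundant of all 61 genes in control skin, at 59.2 CPM, and among ephrins it was followed by Efna1 at 29.1 and Efnb2 at 28.5 CPM.

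Epha1, a receptor of ephrin-As found in epithelia, gave 138, 133 and 136 CPM in controls and 127, 122 and 126 CPM in lecko libraries. The groups did not overlap, and the log2 fold change was -0.12 (SE 0.05), with an unadjusted p of 0.036 and an adjusted p of 0.55 by edgeR. Zyx on the opposite strand shares 6.97% of the Epha1 exons. Epha3, another ephrin-A receptor, was higher: it gave 32.2, 43.9 and 28.2 CPM in controls and 44.3, 48.7 and 45.1 CPM in lecko libraries. The lecko values were tight while control 2 reached nearly the lowest of them. The log2 fold change of Epha3 was 0.40 (SE 0.15), with an unadjusted p of 0.032 and an adjusted p of 0.54 by edgeR. Epha7 gave 3.06, 3.39 and 3.71 CPM in controls and 4.68, 3.62 and 6.53 CPM in lecko libraries, so lecko 2 fell within the control range. Its log2 fold change was 0.54 (SE 0.22), with an unadjusted p of 0.038 and an adjusted p of 0.55 by edgeR. The size rested on single libraries: it was 0.29 without lecko 3 and 0.72 without lecko 2.

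Epha2, an EphA receptor of epidermis and endothelium, had a log2 fold change of -0.09 (95% interval -0.38 to 0.19). Its lecko libraries ranged from 45.7 to 65.8 CPM around controls at 57.4 to 58.4 CPM. Epha4 averaged 38.0 ± 7.34 CPM for controls and 40.3 ± 7.68 CPM for lecko libraries (SD, n = 3). Epha10 was tested at no more than 1.58 CPM in any library, and its interval ran from -0.51 to 1.24. Epha5 and Epha6 were below the filter on low counts at no more than 0.46 CPM in any library, and Epha8 had a count of 0 in every library, under the same limit of 3 counts. Of the 5 EphB receptors, 0 differed at an unadjusted p under 0.05 (8.56% of all genes tested). Their log2 fold changes lay between -0.16 for Ephb1 and 0.15 for Ephb3. Ephb6, a receptor without kinase activity, was the most abundant of them per kilobase in control skin at 35.3 CPM, with a log2 fold change of -0.04, and Ephb2 had one of 0.04.

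The artery and vein pair of ephrin-B2 and EphB4 had estimates near 0. Efnb2 gave 139.5, 127 and 143 CPM in controls and 126, 132 and 138 CPM in lecko libraries, with a log2 fold change of -0.05 (95% interval -0.19 to 0.10). Ephb4 gave 79.4, 80.3 and 98.1 CPM in controls and 78.5, 94.8 and 87.8 CPM in lecko libraries, with a log2 fold change of 0.02 (-0.21 to 0.25). In both genes the libraries of the groups interleaved.

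**Figure D2:**
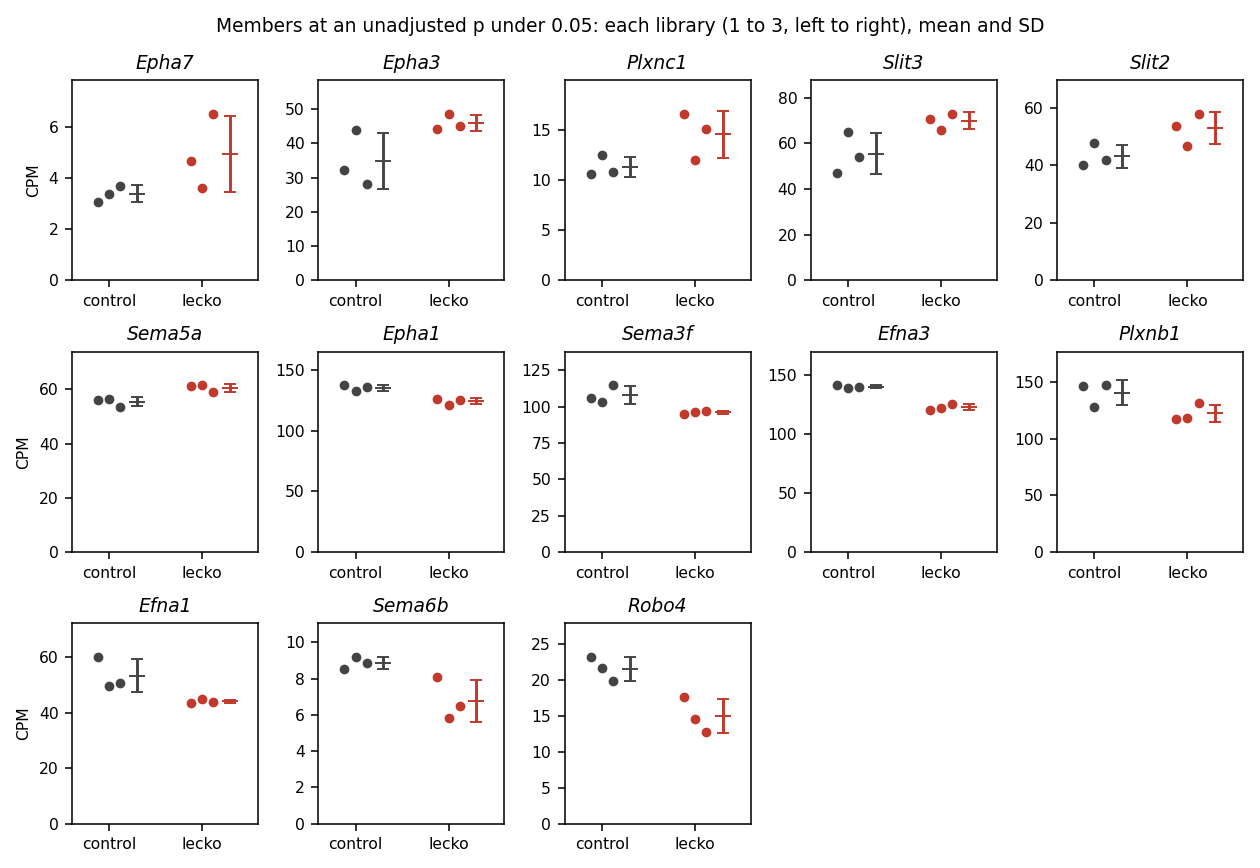
CPM in each library for the 13 guidance genes at an unadjusted p under 0.05, with controls in grey, lecko libraries in red, and the mean with SD (n = 3) beside the points; each vertical axis starts at 0. The groups do not overlap in 9 of the 13 panels, and they overlap for Plxnb1, Plxnc1, Slit2 and Epha7. The genes were picked by the same comparison, which favours separation, and over all genes tested 14.6% do not overlap.

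Of the 20 semaphorins, 10 had positive and 10 negative estimates, and 3 (15%) had an unadjusted p under 0.05, beside 8.56% of all genes tested. Sema3f, a secreted repellent of endothelial cells that binds neuropilin-2, gave 106, 103 and 115 CPM in controls and 94.7, 96.2 and 97.0 CPM in lecko libraries. The groups did not overlap, and the log2 fold change was -0.17 (SE 0.06), with an unadjusted p of 0.016 and an adjusted p of 0.51 by edgeR. Sema6b, a transmembrane ligand of class A plexins, gave 8.53, 9.20 and 8.85 CPM in controls and 8.07, 5.82 and 6.47 CPM in lecko libraries. Lecko 1 lay just under the control range, and the log2 fold change was -0.38 (SE 0.14), with an unadjusted p of 0.024 and an adjusted p of 0.53 by edgeR. Sema5a, a transmembrane semaphorin that binds plexin-B3, gave 56.2, 56.5 and 53.4 CPM in controls and 61.2, 61.5 and 59.0 CPM in lecko libraries. Its groups did not overlap either, and its log2 fold change was 0.13 (SE 0.06), with an unadjusted p of 0.048 and an adjusted p of 0.58 by edgeR. The unadjusted p of Sema5a was 0.15 by DESeq2. With each of the 6 libraries left out in turn, it stayed under 0.05 by edgeR in 1 fit.

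The class 3 semaphorins, which include the ligands best known from vessels, had a median log2 fold change of 0.05. Sema3f was their sole member at an unadjusted p under 0.05 (8.56% of all genes tested). Sema3e, the ligand of plexin-D1, ranged from 35.5 to 41.2 CPM in controls and from 30.5 to 49.2 CPM in lecko libraries. Its log2 fold change was 0.11 (95% interval -0.29 to 0.51). Sema3a, a ligand of neuropilin-1 that takes part in lymphatic valve formation, averaged 15.3 ± 2.90 CPM for controls and 18.2 ± 3.69 CPM for lecko libraries (SD, n = 3), with an interval from -0.16 to 0.67. Sema3g, made by arterial endothelium, was at 26.6 ± 1.85 and 23.9 ± 3.34 CPM, with an interval from -0.40 to 0.09. For Sema3c, at 125 ± 16.1 and 129 ± 1.80 CPM, the interval was -0.15 to 0.24, and for Sema3d, at 151.7 ± 11.8 and 160.5 ± 21.0 CPM, it was -0.15 to 0.31. Sema3b had a log2 fold change of -0.18 (-0.39 to 0.03). Among these 6 genes the upper bound was highest for Sema3a and the intervals all included 0.

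All 6 class 4 semaphorins stayed above an unadjusted p of 0.05, a threshold that 8.56% of all genes tested passed. Sema4a, Sema4c and Sema4d had log2 fold changes of 0.01, 0.06 and 0.04, and Sema4b, Sema4f and Sema4g ones of -0.10, -0.16 and -0.11. Sema6a, Sema6c and Sema6d had 0.11, -0.08 and 0.14. Sema5b was scarce, averaging 1.68 ± 0.09 CPM in control and 1.38 ± 0.08 CPM in lecko skin (SD, n = 3); its groups did not overlap, but its unadjusted p was 0.20 by edgeR. Per kilobase, Sema3f led the family in control skin at 30.9 CPM, followed by Sema3c at 22.8, Sema3d at 20.5 and Sema4a at 19.8 CPM.

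**Figure D3:**
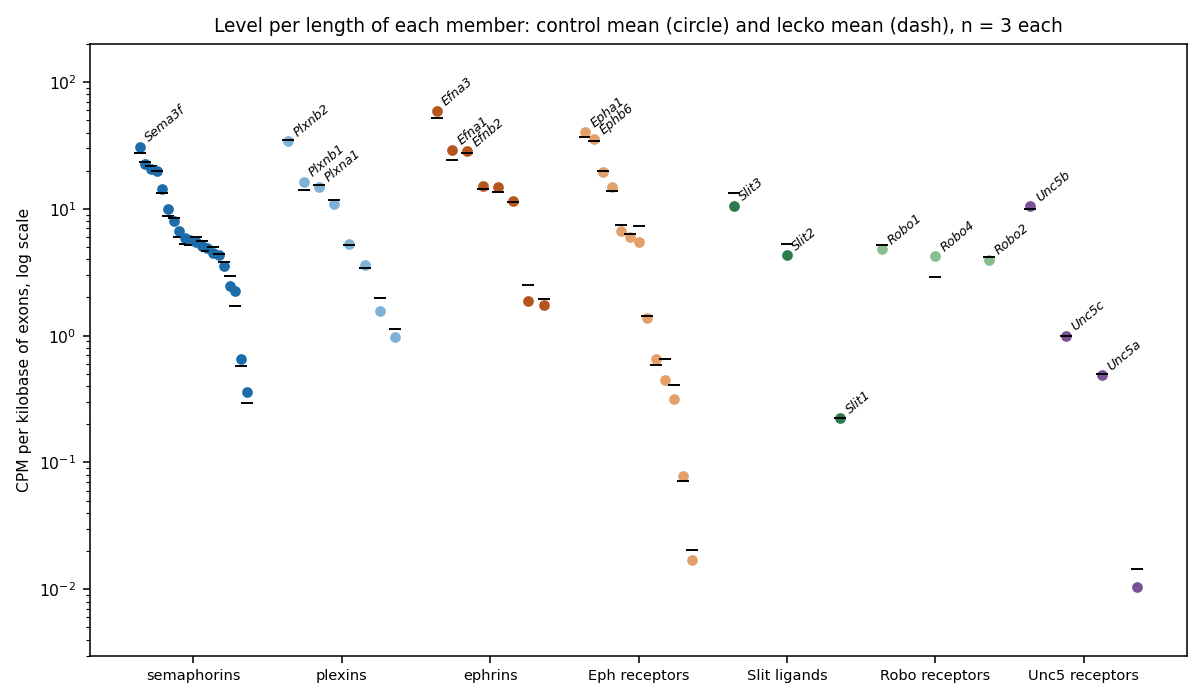
CPM per kilobase of exons, on a log scale, for each guidance gene by family, with circles for the control mean and dashes for the lecko mean (n = 3 each); Epha8 and Robo3, at 0 in controls, are not drawn. Efna3 stands highest at 59.2 and the dash of Robo4 lies below its circle, at 2.93 against 4.22.

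Of the plexins, 2 of 8 had an unadjusted p under 0.05 (8.56% of all genes tested), in opposite directions. A family this small gives only a rough share. Plxnb1, the receptor of Sema4d, gave 147, 128 and 147 CPM in controls and 117, 119 and 131 CPM in lecko libraries. The highest lecko library exceeded control 2, so the groups overlapped. The log2 fold change of Plxnb1 was -0.20 (SE 0.07), with an unadjusted p of 0.022 and an adjusted p of 0.53 by edgeR. Plxnb1 and Sema4d were among the 3 guidance genes with counts that are not whole numbers, in 5 and 6 libraries, and such counts arise where reads are divided among genes or transcripts by estimate. Plxnc1, the receptor of Sema7a and present on leukocytes, gave 10.7, 12.5 and 10.8 CPM in controls and 16.6, 12.0 and 15.1 CPM in lecko libraries. Lecko 2 fell within the control range, and the log2 fold change was 0.37 (SE 0.13), with an unadjusted p of 0.024 and an adjusted p of 0.53 by edgeR. Its ligand Sema7a had the opposite sign: it gave 22.9, 22.1 and 21.6 CPM in controls and 20.4, 20.1 and 18.3 CPM in lecko libraries, a log2 fold change of -0.18 with an unadjusted p of 0.051 by edgeR and no overlap between the groups.

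The other plexins among the 61 genes had intervals that include 0. Plxna4 fell outside the symbols taken and was read with the further pathway genes below. Its log2 fold change was 0.27 (95% interval -0.13 to 0.67). Plxnd1 was at 67.9, 81.0 and 78.1 CPM in controls and 76.1, 86.8 and 78.5 CPM in lecko libraries, with a log2 fold change of 0.09 (95% interval -0.09 to 0.27). Plxnb2, the most abundant plexin per kilobase at 34.1 CPM, varied little, averaging 224 ± 6.36 CPM in control and 229 ± 4.43 CPM in lecko skin (SD, n = 3). Plxna1, Plxna2 and Plxna3 had log2 fold changes of 0.04, -0.03 and -0.10, and Plxnb3 one of 0.22 at no more than 7.26 CPM in any library.

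Of the Unc5 receptors, 0 of 3 tested had an unadjusted p under 0.05 (8.56% of all genes tested), too few genes to read a share from. Unc5b, the netrin receptor of endothelial cells, gave 63.1, 66.7 and 54.6 CPM in controls and 64.2, 48.3 and 63.4 CPM in lecko libraries, with a log2 fold change of -0.07 (95% interval -0.35 to 0.22). Control skin averaged 9.65 ± 0.44 CPM of Unc5c and 1.95 ± 0.38 CPM of Unc5a, and lecko skin 9.73 ± 1.26 and 1.98 ± 0.35 CPM (SD, n = 3). Unc5d was below the filter on low counts, at no more than 0.23 CPM in any library.

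Further genes of these pathways were read from a list of 58 co-receptors, netrins, partners and intracellular mediators. Of its 55 tested members, 4 had an unadjusted p under 0.05, 2 in each direction, which is 7.27%, near the 8.56% of all genes, and the list's median log2 fold change was 0.05. Nrp2, a co-receptor of class 3 semaphorins and of VEGFC on lymphatic vessels, gave 43.0, 45.8 and 44.5 CPM in controls and 49.3, 51.6 and 56.2 CPM in lecko libraries. Its log2 fold change was 0.24 (SE 0.07), with an unadjusted p of 0.0069 by edgeR. Nrp1 had a log2 fold change of 0.18 with an unadjusted p of 0.051. Flrt2, a ligand of Unc5 receptors, averaged 42.3 ± 4.14 CPM in control and 52.0 ± 0.69 CPM in lecko skin (SD, n = 3), with a log2 fold change of 0.30. Mst1r, a receptor kinase that partners class B plexins, gave 39.4, 34.0 and 39.0 CPM in controls and 30.6, 31.2 and 31.2 CPM in lecko libraries, with a log2 fold change of -0.27. Mical3, of the MICAL family that links plexins to actin, had a log2 fold change of -0.15. By edgeR the adjusted p was 0.49, 0.43, 0.47 and 0.55 for Nrp2, Flrt2, Mst1r and Mical3.

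Beside the lower endothelial markers, 6 guidance genes known from vessels were also set against the 10 endothelial markers of the same library. Relative to these markers, Plxnd1 was at 0.77, 0.99 and 0.83 log2 units in controls 1 to 3 and at 1.06, 1.31 and 1.24 in lecko 1 to 3, a difference of 0.34 with no overlap. Ephb4 and Efnb2 differed by 0.27 and 0.20, Unc5b by 0.17, Sema3g by 0.09 and Robo4 by -0.29, all with overlapping values. The marker mean was 5.32, 5.35 and 5.46 log2 CPM in controls 1 to 3 and 5.19, 5.14 and 5.06 in lecko 1 to 3. A gene with unchanged CPM therefore has a positive difference on this scale. In CPM itself, Plxnd1 had a log2 fold change of 0.09 and its groups overlapped. Of the 6, Robo4 had a negative difference, and Efna1, set against the same markers after its values were seen, differed by -0.02 with overlap. Several of these genes are also made outside endothelium, and the sources of their reads were not separated.

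**Figure D4:**
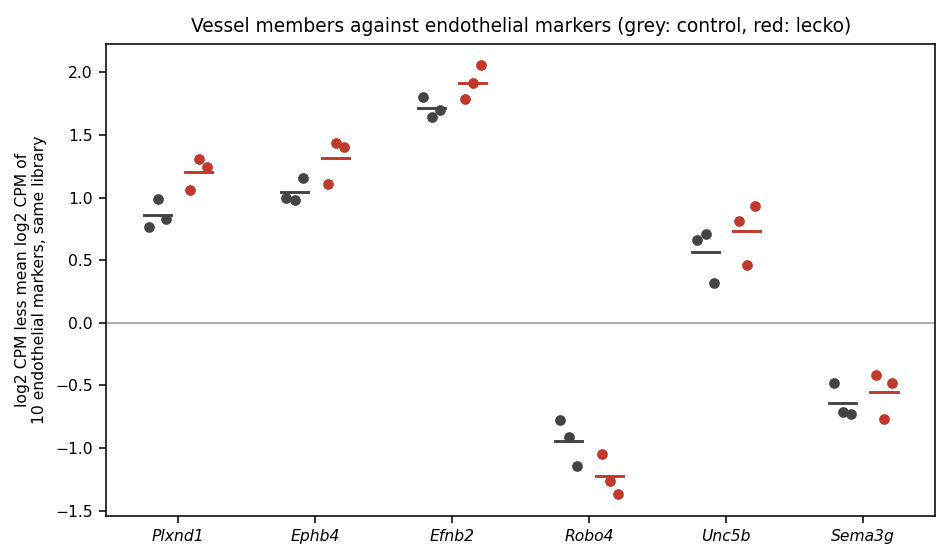
Log2 CPM of 6 guidance genes less the mean log2 CPM of 10 endothelial markers in the same library, with controls in grey, lecko libraries in red and lines at the means (n = 3 each). The Plxnd1 points separate, at 0.77 to 0.99 in controls and 1.06 to 1.31 in lecko libraries, and the Robo4 points are lower in lecko skin with overlap. The marker mean is itself lower in lecko libraries, which raises the red points.

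Markers of several cell types also differed between the groups, and their part in these results was not tested. The endothelial list summed to between 484 and 534 CPM in controls and between 412 and 449.7 CPM in lecko libraries, with negative estimates for 10 of 10 genes. Leukocyte markers had positive estimates for 10 of 10 genes and summed to between 246 and 376 CPM in controls and between 377 and 497 CPM in lecko libraries, and Plxnc1 less the leukocyte mean was -0.97 ± 0.21 log2 units in controls and -1.11 ± 0.12 in lecko skin (SD, n = 3). Basal keratinocyte markers had negative estimates for 6 of 6 genes, with 0 at an unadjusted p under 0.05 (median -0.11), and their sums overlapped, at 8691 to 9902 and 8546 to 9046 CPM. These and the following comparisons with marker means were chosen after the values were seen. Relative to the keratinocyte mean, the differences of Efna3, Efna1, Plxnb1, Sema3f and Epha1 were -0.06, -0.14, -0.07, -0.04 and 0.01, all with overlap. Fibroblast markers had a median of 0.12 with sums of 21868 to 35288 and 26292 to 28863 CPM. Relative to the fibroblast mean, Slit2 and Slit3 differed by 0.18 and 0.23 with overlap, and Epha3 by 0.32 without overlap. Skeletal muscle markers had negative estimates for 7 of 7 genes (median -0.33), 5 of them at an unadjusted p under 0.05 (3.68% of all genes tested). They summed to between 5530 and 6121 CPM in controls and between 3907 and 5279 CPM in lecko libraries. Schwann cell and nerve markers had negative estimates for 8 of 9 genes (median -0.07), with 0 at an unadjusted p under 0.05. Of the pericyte and smooth muscle markers, 2 of 8 were lower at an unadjusted p under 0.05 (3.68% of all genes tested), with a median of -0.05. Hair follicle markers, 5 of them tested, had a median of 0.60, with 0 at an unadjusted p under 0.05. No marker analysed was at 0 in all libraries.

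The 13 genes kept their sign under all 15 alternatives, but 10 of them did not keep an unadjusted p under 0.05 throughout. They were picked by their p in these libraries, and each alternative fits all or most of the same libraries. Both favour an unchanged sign. Robo4, Efna3 and Efna1 stayed under 0.05 in all 15, with log2 fold changes from -0.67 to -0.43, from -0.21 to -0.19 and from -0.45 to -0.19. With sex as a covariate 8 of 56 members had an unadjusted p under 0.05 (5.22% of all genes tested), 6 of them among the 13. In this fit Efna1 was at -0.45, Slit3 at 0.57, Slit2 at 0.40, Robo4 at -0.63 and Plxnd1 at 0.25. Controls 2 and 3 were the only libraries over the Y-linked threshold, so these estimates rest on control 1 against the lecko libraries. The fit without controls 2 and 3 rests on the same contrast. Without controls 2 and 3, a fit chosen after the data were seen that leaves 1 control assumed to vary like the lecko libraries, 8 of 56 stood at an unadjusted p under 0.05 (6.51% of all genes tested), 7 of them among the 13. Without control 1, the sole control below the Y-linked threshold, group and sex coincide, and 5 members remained, all lower (4.81% of all genes tested). Without lecko 3 it was 6 (5.36%), and 0 of Slit2, Slit3, Epha3 and Epha7 had an unadjusted p under 0.05 in either fit. The log2 fold changes of these 4 genes stayed positive, at 0.24, 0.22, 0.35 and 0.47 with control 1 left out and at 0.22, 0.30, 0.42 and 0.29 with lecko 3 left out. Slit3 missed the threshold narrowly with control 1 left out (unadjusted p 0.05004 by edgeR). Epha3 was called without control 2, at a log2 fold change of 0.60 and an adjusted p of 0.043 by edgeR, where 37 genes were called (0.247%); over all alternatives its adjusted p ranged from 0.043 to 0.94.

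**Figure D5:**
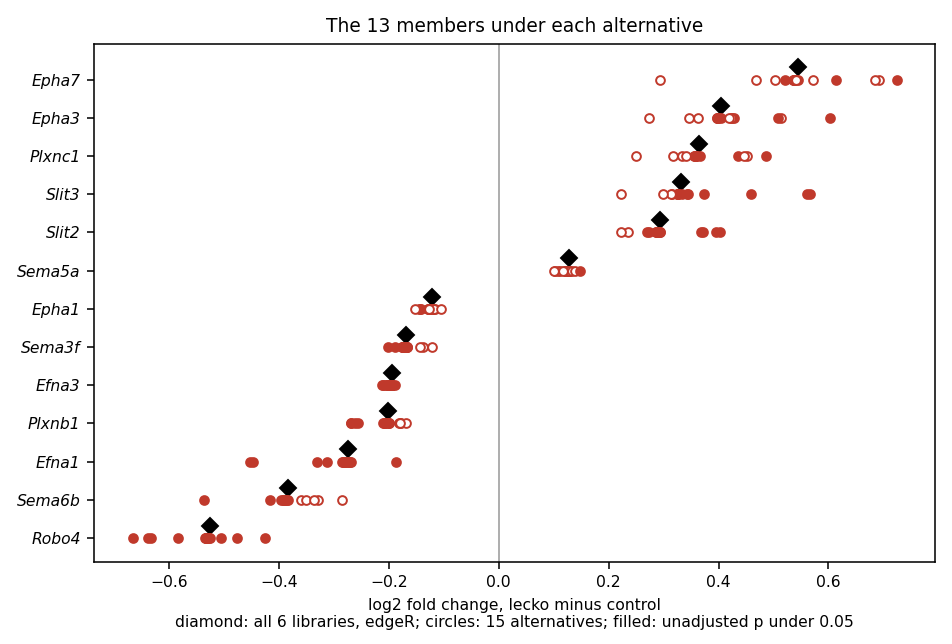
Log2 fold change of the 13 genes with all 6 libraries (diamonds) and under 15 alternatives (circles), filled where the unadjusted p is under 0.05. All points of a gene lie on the same side of 0, and those of Robo4, Efna3 and Efna1 are filled throughout. The genes were picked by the fit shown as diamonds, which favours an unchanged sign.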

How the data were processed

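The authors deposited 1 estimated count per gene for each of 6 ear skin libraries. Per the submitters' processing notes, RSEM 1.3.1 was used beside Bowtie2 2.4.5 and HISAT2 2.2.1 on build GRCm38.p6, with no role given for each. The strand setting is not given in the sources used here. Between 9.60% and 10.5% of values per library were not whole, and all were rounded. The expected counts were fitted over the whole table with edgeR 4.0.16 (R 4.3.3): filterByExpr with a minimum count of 10 and a minimum total of 15, TMM factors, a robust quasi-likelihood test of lecko against control, and Benjamini-Hochberg adjustment with a threshold of 0.05. DESeq2 1.42.0 and limma-voom (limma 3.58.1) were alternatives, with other scalings and filters, a replicate block, sex from Y-linked counts (over 10 CPM) as a covariate, and each library left out. The script was tested on simulated data. Lengths are the union of protein-coding exons in GENCODE M21. Log2 CPM used a prior count of 2.

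The members and lists were chosen with earlier results of these data known. Named are members at an unadjusted p under 0.05, a set of vessel genes, the most abundant member of each family per kilobase and Kdr; values of the other members are given to account for the families.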

Additional observations from a re-analysis of the deposited data

How the results depend on the processing

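Genes called higher numbered 2 in the edgeR fit and 23 by DESeq2, and between 2 and 36 with 1 library left out (36 without control 2). Genes called lower numbered 1 by edgeR and 10 by DESeq2, and between 1 and 5 with 1 library left out. Guidance genes higher at an unadjusted p under 0.05 numbered 6, and between 0 and 6 with 1 library left out. Those lower numbered 7, between 5 and 8 with 1 library left out, and 4 with sex as a covariate. Over all genes tested, the share at that threshold in either direction was 8.56% by edgeR and 5.22% with sex as a covariate. With 1 library left out this share ran from 4.81% (without control 1) to 11.6% (without control 2). Signs turned for small estimates. Sema3e was at -0.0098 with sex as a covariate, at -0.017 without controls 2 and 3, and from -0.044 to 0.28 with 1 library left out. Plxnb2 was at -0.0021 and -0.0088 in the first pair of these fits. With 1 library left out, Sema3c ranged from -0.012 to 0.15, Ephb4 from -0.048 to 0.12, Epha2 from -0.26 to 0.0065 and Unc5b from -0.15 to 0.053. The median of the Robo receptors, set by Robo2, turned to -0.03 without lecko 3. Epha7 kept its sign and ranged from 0.29 to 0.72. The causes were not tested.

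With a replicate block, 12 guidance genes had an unadjusted p under 0.05 (8.37% of all genes tested). Of these, 5 were higher and 7 lower, and 11 were among the 13. Libraries of the same number share only that number: their deviations from the group means correlated at 0.34, -0.07 and 0.04. With 3 libraries a group, intervals of scarce genes are wide: for Slit1, Sema5b and Unc5a they ran from -0.59 to 0.59, from -0.77 to 0.19 and from -0.52 to 0.56.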

Other observations

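Efna1, Efna3 and Efna4 lie next to each other on chromosome 3 (GRCm38.p6), with gaps of 32.9 kb between Efna1 and Efna3 and 10.5 kb between Efna3 and Efna4. Their log2 fold changes were -0.28, -0.19 and -0.01.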
